A study of Rattus norvegicus with 2 samples.

Results

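The genes described here are 10 rat genes of fatty acid binding, uptake and synthesis: the binding proteins Fabp3, Fabp4, Fabp5 and Fabp7, the uptake receptor Cd36, the synthesis enzymes Acaca, Fasn, Scd and Elovl6, and the nuclear receptor Pparg. They were taken from a list by symbol, out of 22093 genes that have probe sets with 1 gene symbol on the array, and all 10 were found. Levels were measured on 2 whole-transcript arrays of neural stem cells (NSCs) from the whole brain of SD rat embryos at day 13.5, which had formed neurospheres for 10 days in serum-free medium with growth factors. The co-cultured NSCs then spent 14 days on ectodermal mesenchymal stem cells (EMSCs) at passage 3, taken from rats transgenic for green fluorescent protein (GFP), in medium with 10% fetal bovine serum, and were recovered by fluorescence-activated sorting. The mono-cultured NSCs spent 14 days alone. The labels give neither the medium of the mono-cultured NSCs in that period nor a sort for them, so contact with EMSCs, the medium and the sort cannot be told apart. Each condition has 1 array, so no p-value or replicate error can be given, and every difference below is a difference between 2 arrays.

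Fatty acids are poorly soluble in water, and small cytosolic fatty acid binding proteins carry them to membranes, enzymes and nuclear receptors. New fatty acids are made from acetyl-CoA: acetyl-CoA carboxylase makes malonyl-CoA, fatty acid synthase joins these units into palmitate, elongases lengthen the chain and desaturases introduce double bonds. In the developing brain Fabp7 is a known marker of radial glia and later of astrocytes, and synthesis of fatty acids is known, from mice, to be needed by dividing neural stem cells.

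Fabp7 and Scd had co-cultured levels at least 2-fold under the mono-cultured ones, Elovl6 was 1.69-fold higher, and the other 3 genes that were bright enough to be compared, Fabp5, Acaca and Fasn, were lower by 1.26-fold to 1.55-fold. The remaining 4 genes, Fabp3, Fabp4, Cd36 and Pparg, were dim on both arrays. Levels are log2 values from RMA, a method that subtracts background, equalises the distributions of the arrays and combines the probes of a set. Differences are given as co-cultured minus mono-cultured, so that 1 stands for 2-fold. A gene was kept for comparison if its higher level reached 4.97, the median over all genes and both arrays, which 11849 genes and 6 of the 10 did. The negative control level, meaning the 95th percentile over 1153 such probe sets, was 6.64, and a level under it is called dim here. Among 399 positive control probe sets, the central 95% of differences lay between -1.15 and 0.61, and the median difference was -0.16.

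**Figure D1:**
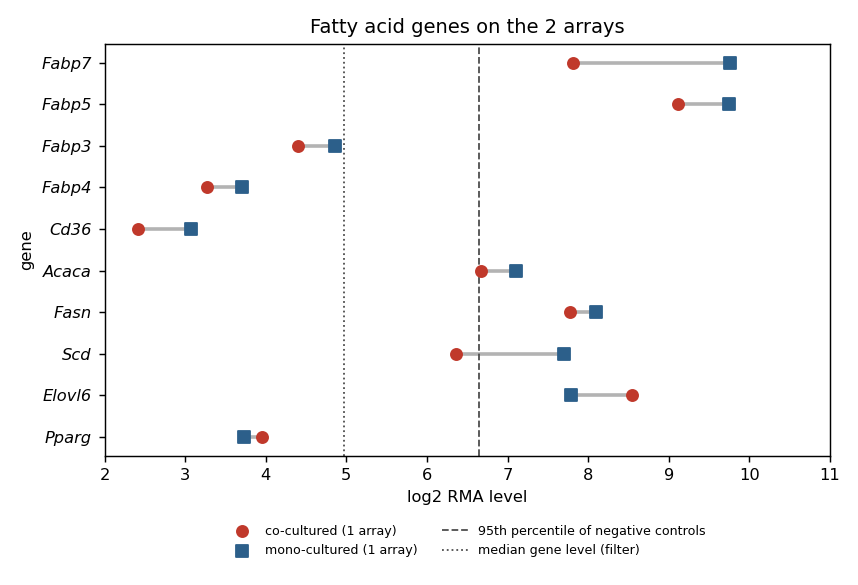
Log2 RMA level (horizontal axis) of each of the 10 genes on the co-cultured (circle) and the mono-cultured (square) array, 1 array each, with no error bars because there are no replicates. Fabp7, at 7.81 in co-cultured and 9.76 in mono-cultured NSCs, has the widest gap, and Fabp3, Fabp4, Cd36 and Pparg lie left of both lines, which mark the median gene level of 4.97 and the 95th percentile of the negative controls, 6.64.

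The start sites of Fabp7 and Scd, which are the only 2 of the 10 genes past 2-fold, are shown as the window of 250 bases before to 50 bases after the start of a transcript, from RefSeq on build GRCr8. Windows were at hand for 5 of the 10 genes (Scd, Cd36, Pparg, Fabp3 and Fabp7). Both windows shown lie inside the annotated span of their gene, and the data measure transcripts and not activity of these windows. The Fabp7 window is chr20:37669356-37669655 on the + strand and the Scd window is chr1:253231682-253231981 on the - strand. Capitals mark CCAAT (or its reverse complement ATTGG) and GGGCGG (or CCGCCC).
Fabp7: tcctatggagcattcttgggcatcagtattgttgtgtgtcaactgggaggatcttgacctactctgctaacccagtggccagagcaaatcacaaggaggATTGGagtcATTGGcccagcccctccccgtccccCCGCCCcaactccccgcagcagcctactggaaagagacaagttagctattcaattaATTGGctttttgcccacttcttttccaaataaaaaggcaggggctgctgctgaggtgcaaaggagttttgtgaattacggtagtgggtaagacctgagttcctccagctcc
Scd: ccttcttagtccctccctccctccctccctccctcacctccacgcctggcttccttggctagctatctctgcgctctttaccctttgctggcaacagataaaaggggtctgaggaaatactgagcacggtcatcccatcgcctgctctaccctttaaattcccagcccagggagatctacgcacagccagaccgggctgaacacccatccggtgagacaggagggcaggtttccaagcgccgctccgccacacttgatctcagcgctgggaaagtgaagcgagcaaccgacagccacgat

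The Fabp7 window held 3 matches to CCAAT and 1 to GGGCGG, all on the reverse strand and none overlapping another. The Scd window held 0 matches to any of the 4 motifs searched on both strands. The other 2 motifs were the sterol element TCACNCCAC and the direct repeat bound by PPAR receptors, AGGTCA written in duplicate with any base between, and neither was found in the windows of Cd36, Fabp3 or Pparg either. Of 33469 windows of 300 bases in the same table, 37.5% held CCAAT, 33.1% held GGGCGG, 1.12% held the sterol element and 0.0538% held the direct repeat. CCAAT and GGGCGG are thus common in such windows, and a match or its lack says nothing about binding.

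Of the binding proteins, Fabp7, also known as brain lipid-binding protein, measured 7.81 in co-cultured and 9.76 in mono-cultured NSCs. Both levels were above the negative control level, so the difference of -1.95, or 3.86-fold lower, was measured on both sides. It lay outside the central 95% of the positive controls, and 235 of the 11849 kept genes (1.98%) differed downward by as much or more. Fabp5, the epidermal form, which neural progenitors and macrophages also make, was 9.11 in co-cultured and 9.74 in mono-cultured NSCs. Its difference of -0.64, or 1.55-fold lower, lay inside the range of the positive controls, and 10.1% of kept genes were as low or lower.

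Fabp3, the heart form, measured 4.40 in co-cultured and 4.86 in mono-cultured NSCs. Fabp4, the form of adipocytes and macrophages, was 3.27 in co-cultured and 3.71 in mono-cultured NSCs. The differences were -0.46 for Fabp3 and -0.44 for Fabp4, but none of these levels reached 4.97, and no direction is read from them. Among the negative controls, 46.7% differed in size by as much as Fabp3 and 47.8% by as much as Fabp4.

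Cd36, a membrane receptor that takes up long-chain fatty acids and modified lipoproteins, was 2.41 in co-cultured and 3.07 in mono-cultured NSCs. The difference of -0.66 was reached in size by 30.6% of the negative controls. Pparg, a nuclear receptor activated by fatty acids and the master regulator of fat cell formation, was 3.96 in co-cultured and 3.74 in mono-cultured NSCs. Its difference of 0.22 was reached in size by 70.5% of the negative controls, the largest such share of the 4 dim genes. At levels as dim as these a log2 difference does not give the size of a change, so these 4 genes enter no comparison.

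Of the synthesis enzymes, Acaca and Fasn, which carry out the committed step and the assembly of palmitate, were slightly lower in co-culture. Acaca was 6.67 in co-cultured and 7.11 in mono-cultured NSCs, differing by -0.44, and its level in co-culture lay just above the negative control level. Fasn was 7.77 in co-cultured and 8.10 in mono-cultured NSCs, differing by -0.33. Both differences lay inside the range of the positive controls, and 17.3% (Acaca) and 23.6% (Fasn) of kept genes were as low or lower.

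The enzymes that modify the finished chain differed in opposite directions. Scd, the stearoyl-CoA desaturase that makes monounsaturated fatty acids, was 6.35 in co-culture, which is dim, and 7.70 in mono-culture. Its difference of -1.35, or 2.54-fold lower, lay outside the range of the positive controls, and 3.54% of kept genes were as low or lower. These values rest on a co-cultured level under the negative control level, though above the 75th percentile of gene levels, 6.30. With dim levels raised to the negative control level, the difference of Scd was -1.06, which is past 2-fold but inside the range of the positive controls. Elovl6, the elongase that turns palmitate into stearate, was 8.54 in co-cultured and 7.79 in mono-cultured NSCs, both above the negative control level.

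Elovl6 is the only 1 of the 10 genes with more than 1 probe set, and its 3 probe sets give the only repeated reading. The first measured 7.45 in co-cultured and 7.02 in mono-cultured NSCs, differing by 0.43. The second was 8.91 in co-cultured and 8.02 in mono-cultured NSCs, differing by 0.88. The third was 9.26 in co-cultured and 8.32 in mono-cultured NSCs, differing by 0.94. All 3 were higher in co-culture, the first by a difference inside the range of the positive controls, -1.15 to 0.61. Their mean difference of 0.75, or 1.69-fold higher, lay above the range of the positive controls, and 7.18% of kept genes were as high or higher. Across 475 kept genes with several bright probe sets, the differences given by probe sets of the same gene had an SD of 0.26 about their mean. This SD is of differences and not of levels. It describes technical spread inside the arrays and not the spread between cultures.

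At a difference of 2-fold or more, 2 of the 6 kept genes were lower in co-culture, against 5.54% of all kept genes, and 0 were higher, against 5.04%. At 1.5-fold or more, 3 were lower (Fabp7, Scd and Fabp5), against 11.4% of all kept genes, and 1, Elovl6, was higher, against 9.24%. At 4-fold or more there were 0 in either direction, against 1.91% of kept genes lower and 1.8% higher. The median difference of the 6 genes was -0.54, against -0.06 over all kept genes, and 5 of the 6 lay below 0, as did 55.8% of kept genes.

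**Figure D2:**
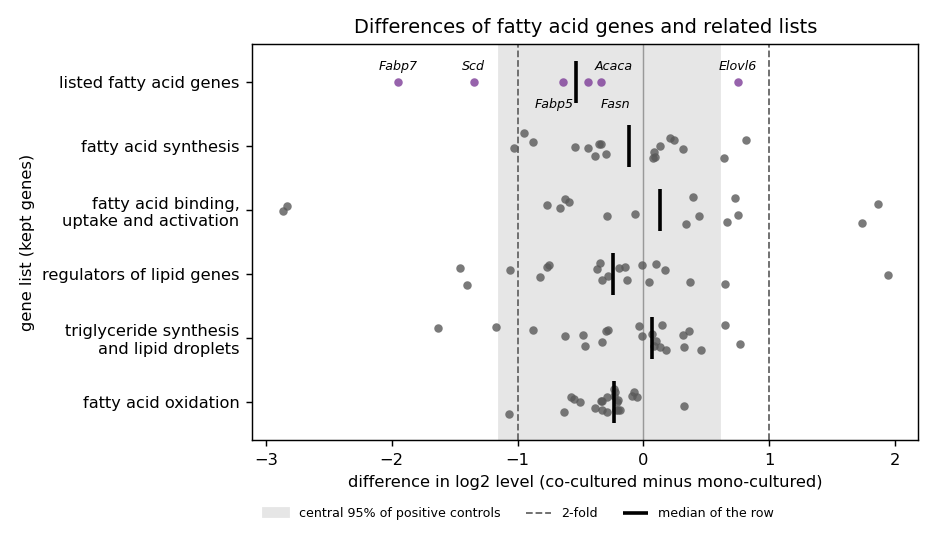
Difference in log2 level, co-cultured minus mono-cultured (horizontal axis), of the kept genes among the 10 listed genes and in 5 lists of related genes, 1 point per gene, with the median of each row as a bar. The grey band is the central 95% of positive controls (-1.15 to 0.61) and the dashed lines mark 2-fold. Fabp7, Scd and Elovl6 lie outside the band, although Scd lies inside it (-1.06) with dim levels raised to 6.64, and the fatty acid oxidation row lies close together on the side lower in co-culture.

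Related genes were read from 5 lists that leave out the 10 genes above. The array holds 124 such genes and 100 passed the level filter. Of these, 9 were lower by 2-fold or more in co-culture (9.0%, against 5.54% of all kept genes) and 3 higher by 2-fold or more (3.0%, against 5.04%). With dim levels raised to the negative control level these counts were 3 lower and 0 higher. The share of all kept genes past 2-fold with dim levels raised was not worked out. Such counts, here and below, therefore stand without a share to set them against. The median difference of these 100 genes was -0.22, against -0.06 over all kept genes and -0.16 in the positive controls. Of the 100 genes, 64 lay below 0, against 55.8% of all kept genes. In the synthesis list 1 of 18 kept genes was lower by 2-fold or more, against 5.54% of all kept genes, and 0 were higher, against 5.04%. The 1 was Elovl2, an elongase of polyunsaturated fatty acids, at 4.16 in co-cultured and 5.19 in mono-cultured NSCs, both dim. Its difference of -1.02 lay inside the range of the positive controls. Raising dim levels left 0 past 2-fold. Scd2, the second desaturase gene of the same family, was 10.31 in co-cultured and 11.26 in mono-cultured NSCs, differing by -0.95. Scd2 was well above background on both arrays and lower in co-culture, as was Scd. Its difference was under 2-fold and inside the range of the positive controls. Thrsp, a lipogenic nuclear protein gene, differed by -0.88, and the desaturase family gene Fads3 by 0.81, both between dim levels. The list's median of -0.11 lay near that of all kept genes, with 9 genes higher and 9 lower.

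Of 16 kept genes of binding, uptake and activation, 2 were lower and 2 higher by 2-fold or more in co-culture, against 5.54% of all kept genes lower and 5.04% higher, and the median was 0.13. With dim levels raised, 1 was lower and 0 were higher. Acsbg1, an acyl-CoA synthetase of the brain that is made by astrocytes, was 4.34 in co-cultured and 7.21 in mono-cultured NSCs, differing by -2.87. Lpl, the lipoprotein lipase that frees fatty acids from lipoproteins, was 5.12 in co-cultured and 7.95 in mono-cultured NSCs, differing by -2.83. Both were lower in co-culture and dim there. The higher pair were the cellular retinoic acid binding proteins, which belong to the same protein family as the Fabps. Crabp2 was 7.25 in co-cultured and 5.39 in mono-cultured NSCs, differing by 1.86. Crabp1 was 6.77 in co-cultured and 5.04 in mono-cultured NSCs, differing by 1.73. Both were dim in mono-culture. The Fabp family members outside the 10 genes (Fabp1, Fabp2, Fabp6, Fabp9, Fabp12 and Pmp2) were all below 4.97 on both arrays.

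Of 20 kept regulators, 3 were lower and 1 higher by 2-fold or more, against 5.54% of all kept genes lower and 5.04% higher, and the median was -0.24. With dim levels raised, 0 were past 2-fold in either direction. Srebf1, the transcription factor gene that drives fatty acid synthesis genes, was 5.79 in co-culture, which is dim, and 7.26 in mono-culture, differing by -1.46. Its relative Srebf2, which mainly drives sterol synthesis genes, was 7.57 in co-cultured and 7.19 in mono-cultured NSCs, differing by 0.37. Srebf2 falls outside the rule for named genes and was chosen after its value was seen. The differences of Srebf1 and Srebf2 had opposite signs, that of Srebf2 inside the range of the positive controls. Rxra, the partner of PPAR receptors, was 5.98 in co-culture, which is dim, and 7.04 in mono-culture. Its difference of -1.06 lay inside the range of the positive controls. Cebpa, a factor of fat and myeloid cells, was dim on both arrays and differed by -1.40. Ebf1, a factor of mesenchymal and fat cell precursors, was 5.98 in co-cultured and 4.04 in mono-cultured NSCs, differing by 1.94 between dim levels.

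Of 23 kept genes of triglyceride synthesis and lipid droplets, 2 passed 2-fold downward and 0 upward, against 5.54% of all kept genes lower and 5.04% higher. The median was 0.07. Raising dim levels left 1 of them past 2-fold. Plin2, the coat protein of lipid droplets in most cells, was 6.94 in co-cultured and 8.57 in mono-cultured NSCs, differing by -1.63, with both levels above the negative controls. Gpam, the mitochondrial acyltransferase that starts glycerolipid synthesis, differed by -1.17 and was dim in co-culture. The lipase gene Mgll differed by -0.88 and the acyltransferase gene Gpat3 by 0.76, both between dim levels. Fatty acid oxidation genes differed little but mostly in the same direction. Of 23 kept, 22 were lower in co-culture, against 55.8% of all kept genes, and 1 was at least 2-fold lower, against 5.54%, with a median of -0.23, beside a median of -0.16 in the positive controls. Under quantile normalization 20 of the 23 were lower, and under the loess fit 21. The thiolase gene Acaa2 was 6.67 in co-cultured and 7.74 in mono-cultured NSCs, differing by -1.07. Pdk4, Acox3 and Ech1 differed by -0.63, -0.57 and -0.55. These differences, that of Acaa2 included, lay inside the range of the positive controls. Pdk4 and Acox3 were dim on both arrays.

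Markers of cell types that make these genes differed between the arrays as well. For the counts of markers past 2-fold given from here on, the shares over all kept genes are 5.54% lower and 5.04% higher. Fabp7, Acsbg1 and Scd2 are known in glia. Of 12 astrocyte markers, 10 were kept, and 8 of these passed 2-fold downward and 1, Gja1 (1.04), upward. On the co-cultured array 4 of the 12 were above the negative control level (levels 4.43 to 7.59), against 7 on the mono-cultured array (4.42 to 9.51), and the log2 of their summed linear levels was 9.84 in co-cultured and 11.57 in mono-cultured NSCs. Mlc1, Gfap and Ntsr2 led, with differences of -3.26, -2.95 and -2.68. Of 11 markers of neural stem cells and radial glia, 5 were above the negative control level in co-culture (3.72 to 11.74) and 6 in mono-culture (4.53 to 11.39), with a summed level of 12.16 on each array. Vim, the highest of them at 11.74 in co-cultured and 11.39 in mono-cultured NSCs, makes up most of both sums. Of the 9 kept genes 7 were lower in co-culture, against 55.8% of all kept genes, with a median of -0.35. In that list, 3 of the 9 kept genes were at least 2-fold lower, Slc1a3 (-2.50), Emx2 (-1.96) and Hopx (-1.30), while Sox2 was 8.69 in co-cultured and 8.83 in mono-cultured NSCs. Slc1a3 stands on both lists. In bulk RNA, fewer cells of a type and less RNA per cell cannot be told apart, and the part of astrocytes or radial glia in the differences of Fabp7 and Scd was not tested.

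**Figure D3:**
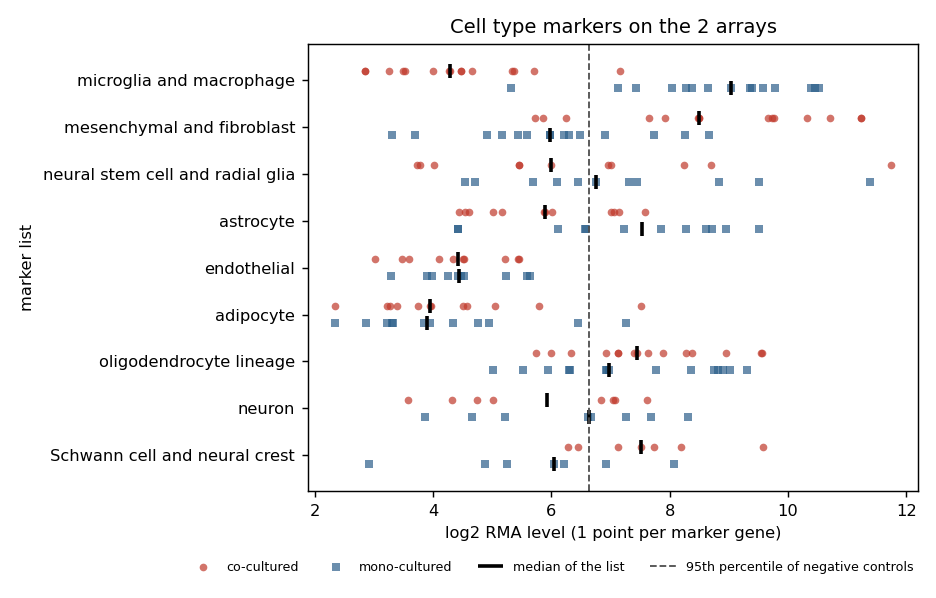
Log2 RMA level (horizontal axis) of each marker gene in 9 lists on the co-cultured (circles, upper line of each list) and the mono-cultured (squares, lower line) array, with the median of each list as a bar and the 95th percentile of the negative controls, 6.64, as a dashed line. Of the 15 microglia and macrophage markers, 1 in co-cultured and 14 in mono-cultured NSCs lie right of the dashed line.

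Fabp4, Fabp5, Cd36, Lpl, Plin2 and Cebpa are known to be made by macrophages. All 15 markers of microglia and macrophages were lower by 2-fold or more in co-culture, with a median difference of -4.82. Their levels ran from 2.85 to 7.16 in co-culture, where 1 of 15, C1qa, was above the negative control level, and from 5.32 to 10.53 in mono-culture, where 14 were, and the summed level was 8.81 in co-cultured and 13.19 in mono-cultured NSCs. C1qb, Csf1r and Adgre1 differed by -5.79, -5.77 and -5.53. Fabp4 and Cd36 were below 4.97 on the mono-cultured array, where these markers were high. The part of macrophages in the differences of Fabp5, Scd, Lpl, Plin2 and Cebpa was not tested.

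Mesenchymal markers were mostly higher in co-culture. Of 15, 12 passed 2-fold upward and 2, Eng (-2.02) and Nt5e (-2.00), downward, with 12 above the negative control level in co-culture (5.73 to 11.24) and 4 in mono-culture (3.30 to 8.66), and a summed level of 13.55 in co-cultured and 10.64 in mono-cultured NSCs. Lum, Snai2 and Acta2 led, with differences of 5.20, 4.81 and 4.76. Of 7 Schwann cell and neural crest markers, 5 were at least 2-fold higher, Ngfr (4.34), Cdh19 (3.37), Egr2 (1.99), Foxd3 (1.57) and Erbb3 (1.47), with 5 above the negative control level in co-culture (6.28 to 9.58) and 2 in mono-culture (2.91 to 8.08), and a summed level of 10.78 in co-cultured and 9.24 in mono-cultured NSCs. The co-cultured NSCs had been sorted away from the GFP-carrying EMSCs, a step meant to leave EMSCs out, and the part of mesenchymal or neural crest cells in the higher level of Elovl6 was not tested.

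Of 12 adipocyte markers 3 were kept, Cfd (-1.47), Gpd1 (1.08) and Lipe (0.29), and 1 was above the negative control level on each array. The range was 2.35 to 7.52 in co-culture and 2.35 to 7.26 in mono-culture, with summed levels of 8.64 in co-cultured and 8.61 in mono-cultured NSCs. The adipocyte-defining gene Adipoq was listed at 2.35 on both arrays and the droplet coat gene Plin1 at 4.58 in co-cultured and 4.34 in mono-cultured NSCs, all below 4.97, as were Fabp4 and Pparg. Among the other markers, 1 of 15 oligodendrocyte lineage genes was at least 2-fold higher, Ermn (1.46), and 1 lower, Cldn11 (-1.13), while Opalin differed by 0.97. Of 6 kept neuron genes 2 were at least 2-fold lower, Dcx (-1.59) and Stmn2 (-1.22), and Map2 differed by -0.64. Of 10 endothelial genes 0 were above the negative control level on either array, and Pecam1, Cdh5 and Ramp2 differed by -1.48, 0.96 and -0.19.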

How the data were processed

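RNA of 2 samples was hybridised to 1 array each. The authors deposited RMA values on a log2 scale, 1 per transcript cluster, per the submitters' processing notes, and the range of the values (0.33 to 12.74) fits that scale. A software version is not given in the sources used here. Of 70580 rows, 23446 probe sets had 1 symbol in the platform annotation and 505 had several, which were left out. Probe sets were averaged per gene. Genes were kept if the higher level reached the median gene level. The number of arrays limits the precision.

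With 1 array a group no test was made. Differences of 2-fold or more were counted, with 1.5-fold and 4-fold as alternatives, beside median centring, quantile normalization (limma 3.58.1, R 4.3.3), loess (span 0.4), other rules for probe sets, other filters and raised dim levels. Other steps used Python 3.11.15, numpy 2.4.6, pandas 2.3.3 and statsmodels 0.14.6, and were tested on simulated data. The text names all 10 genes, up to 4 kept genes per related list and 3 per marker list with the largest absolute difference, and, outside this rule and chosen after their values were seen, Srebf2, Sox2, Vim, Adipoq, Plin1, Gja1, Eng, Nt5e, Foxd3, Erbb3, C1qa and the dim Fabp family members. The genes and lists were chosen with earlier results of these data known. Some listed genes were not analysed here.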

Additional observations from a re-analysis of the deposited data

How the results depend on the processing

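Fabp7 and Scd stayed the only 2 of the 10 genes at least 2-fold lower when every level under 6.64 was set to that value. Raising dim levels could not move Fabp7, because both its levels were above 6.64. The same 2 genes were past 2-fold after loess, after quantile normalization and after median centring. RMA had already equalised the arrays, and these scalings moved Scd only to -1.29, -1.30 and -1.34, so they were a weak check. The other rules for probe sets and the other filters gave the count of 2 lower genes as well, but they could not have changed it. Fabp7 and Scd have 1 probe set each and pass every filter. None of the 4 genes that the main filter left out differed by 2-fold. Among the 10, the rules for probe sets could change the difference of Elovl6 alone. The difference of Fabp7 lay between -1.95 and -1.87 over the main setting and 6 alternatives, that of Scd between -1.35 and -1.06, and that of Elovl6 between 0.75 and 0.94. At 1.5-fold the count of higher genes was 1, and at 4-fold the count of lower genes was 0. The median of the kept genes was -0.45 under quantile normalization, -0.47 under loess and -0.66 as a mean. Of the 100 kept genes of the related lists, 0 higher and 3 lower passed 2-fold with dim levels raised, a setting without a share over all kept genes. At 1.5-fold 11 were higher, against 9.24% of all kept genes, and 21 lower, against 11.4%. At 4-fold 0 were higher, against 1.8%, and 2 lower, against 1.91%. With dim levels raised, Fabp3, Fabp4, Cd36 and Pparg differ by 0 by construction. No paired analysis was possible because each condition has 1 array, and no array could be left out for the same reason. Levels under the negative control level limit the reading of 4 of the 10 genes on both arrays and of Scd on the co-cultured array. Protein sequences, and the start sites of the other 5 genes, were not analysed here.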
